A study of Homo sapiens with 24 samples.

Results

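The feedback and output genes of MAPK signalling described here, 10 of the 38048 genes in the deposited gene table, were followed across 8 treatments of MV4-11 cells, an established human acute myeloid leukaemia line with an internal tandem duplication in the receptor kinase FLT3. The genes were taken by name, in a list chosen with earlier results of these data known: DUSP4, DUSP5, DUSP6, SPRED1, SPRED2, SPRY4, ETV4, ETV5, PHLDA1 and CCND1. RNA was sequenced in 24 libraries, 3 for each group, and all libraries carried the genotype label PRMT5 +/+. Cells of 4 groups were treated for 3 days: with the vehicle DMSO, with PRT220 at 3 nM (a PRMT5 inhibitor), with GSK-LSD1 at 10 nM (an LSD1 inhibitor), or with both agents. MS023, which blocks the type I arginine methyltransferases, was used alone and together with GSK-LSD1, and MC4455 and MC4491 each had a group of their own. For these 4 groups neither dose nor duration was given, and they are set against the same DMSO libraries. MC4455 and MC4491 are known here only by their code names.

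Growth factor receptors such as FLT3 activate RAS, which starts a kinase cascade from RAF through MEK to ERK. ERK raises the transcription of its own inhibitors, among them the dual-specificity phosphatases of the DUSP family and the Sprouty and SPRED proteins, and of the ETS transcription factors ETV4 and ETV5, so that the levels of these transcripts are widely read as an output of the pathway. In FLT3-mutant leukaemia cells the receptor signals without ligand, and these genes are transcribed under constant input from it.

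Each library held between 32495446 and 61090593 estimated counts. The level of a gene is its share of the library in counts per 1000000 (CPM) after TMM scaling, a correction for differences in library composition, with the mean ± SD over the 3 libraries of a group where a mean is printed. A gene was called when its adjusted p fell below 0.05 in edgeR's quasi-likelihood test over the 16640 genes that passed the filter on low counts, and all 10 genes passed. A set of 8 libraries (DMSO C, PRT220 A, B and C, PRT220 with GSK-LSD1 C, MS023 A and C, and MS023 with GSK-LSD1 B) stood apart in RRP9, a ribosomal RNA processing factor, with 0.677 to 1.73 CPM against 29.1 to 36.2 CPM in the other 16. A term for these 8 libraries called 696 genes and none of the 10; SPRED1 came closest, with a log2 difference of -0.24 and an edgeR adjusted p of 0.0977. Among markers of the labelled cell type, PTPRC ran from 158 to 265 CPM, CD33 from 59.5 to 83.6, SPI1 from 62.0 to 82.3, CEBPA from 157 to 307 and MPO from 5.97 to 11.6. PF4, MS4A1 and KRT19, markers of megakaryocytes, B cells and epithelium, were at 0 in all 24 libraries, and 5 epithelial and fibroblast markers summed to between 0.488 and 1.41 CPM. The 4 lymphocyte markers summed to between 19.5 and 26.5 CPM and the 5 erythroid and megakaryocyte markers to between 19.5 and 34.9 CPM.

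Per kilobase of exon, the only scale on which the genes are compared with each other, DUSP6 was the most abundant of the 10 in DMSO, at 28.5 CPM per kb. ETV5 followed at 11.5, SPRED2 at 8.28, ETV4 at 3.76, DUSP5 at 3.55 and PHLDA1 at 3.48 CPM per kb. CCND1 (1.19), SPRED1 (0.955), DUSP4 (0.516) and SPRY4 (0.246 CPM per kb) were the least abundant. The 10 genes also differed in how far they moved. Group means of DUSP4 spanned 3.33 on the log2 scale, against a pooled SD within groups of 0.13. The span was 1.12 for DUSP5, 0.91 for PHLDA1, 0.83 for ETV5, 0.80 for both ETV4 and CCND1, 0.75 for SPRED1 and 0.53 for SPRY4. DUSP6 and SPRED2, among the most abundant of the set, moved least, with spans of 0.30 and 0.19.

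**Figure D1:**
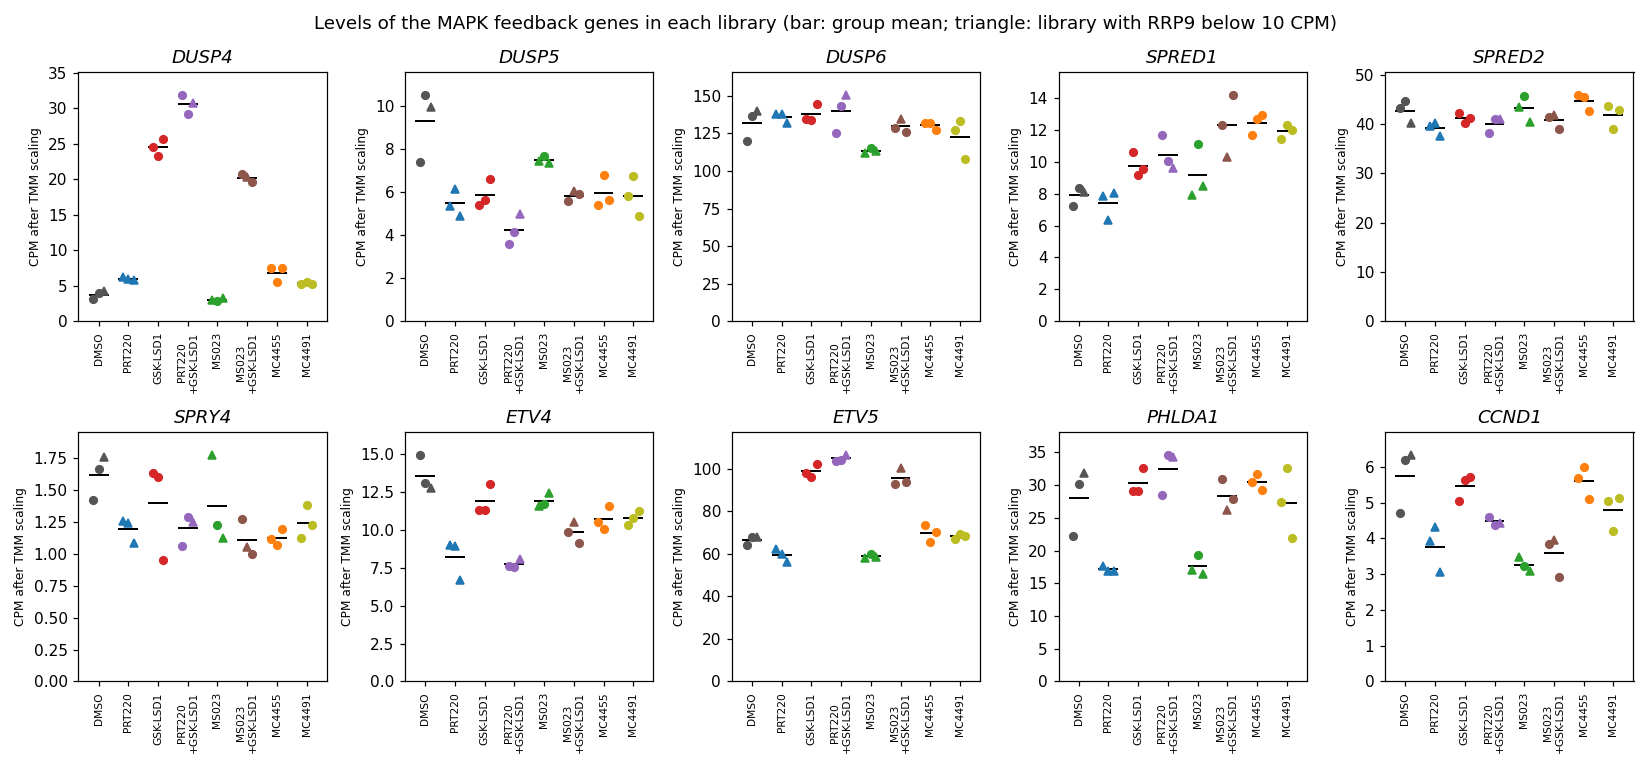
Level of each of the 10 genes (y axis, CPM after TMM scaling, from 0) in each of the 24 libraries, by treatment group (x axis); bars are group means and triangles mark the 8 libraries low in RRP9. DUSP4 lies between 19.5 and 31.9 CPM in the 9 libraries that received GSK-LSD1 and between 2.85 and 7.53 CPM in the other 15.

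The DUSP phosphatases remove phosphate from MAP kinases. DUSP4 (ENSG00000120875, GRCh38 chromosome 8, 29333064 to 29350668, minus strand) encodes a nuclear enzyme that acts on ERK and other MAP kinases. In DMSO it measured 3.11, 3.92 and 4.20 CPM in libraries A, B and C. With GSK-LSD1 the levels were 24.6, 23.2 and 25.6 CPM, with PRT220 and GSK-LSD1 together 31.9, 29.2 and 30.7 CPM, and with MS023 and GSK-LSD1 together 20.7, 20.3 and 19.5 CPM. All 9 libraries with GSK-LSD1 lay far above all others. PRT220 alone gave 6.21, 5.96 and 5.85 CPM and MS023 alone 2.94, 2.85 and 3.21 CPM. The levels were 7.53, 5.47 and 7.43 CPM with MC4455 and 5.27, 5.59 and 5.29 CPM with MC4491. PRT220, MC4455 and MC4491 thus stood above every DMSO library without reaching the GSK-LSD1 groups, whereas the MS023 libraries overlapped with DMSO.

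Against DMSO, DUSP4 rose 6.50-fold with GSK-LSD1 (log2 fold change 2.70 ± 0.104 SE, edgeR adjusted p = 6.5e-14), 8.14-fold with the PRT220 combination (3.02 ± 0.105) and 5.36-fold with the MS023 combination (2.42 ± 0.104). It rose 1.60-fold with PRT220 (edgeR adjusted p = 5.9e-05), 1.81-fold with MC4455 and 1.43-fold with MC4491 (edgeR adjusted p = 0.0013). With MS023 the log2 fold change was -0.33 ± 0.109 and was not called (edgeR adjusted p = 0.14), though it was without DMSO A (0.040). The rises under the 6 treatments were called in all 13 or 14 alternative analyses. For PRT220, whose libraries are all low in RRP9, removal of the low libraries could not be run. Ordered by mean, MS023 (3.00 ± 0.187 CPM) and DMSO (3.74 ± 0.566) overlapped, as did PRT220 (6.01 ± 0.188) and MC4455 (6.81 ± 1.16), and no other neighbours did. Monocyte markers moved beside DUSP4: the 6 listed genes (CD14, ITGAM, CD86, MPEG1, VCAN, LYZ) summed to between 955 and 1010 CPM in DMSO, 3184 and 3358 with GSK-LSD1, 2641 and 2862 with the PRT220 combination, and 2595 and 2938 with the MS023 combination, and 5 of the 6 rose in each of these 3 treated groups. With MC4455 5 of the 6 also rose, and with PRT220 and MC4491 3 of the 6. Of all genes, 17.6% were called higher with GSK-LSD1, 24.4% with the PRT220 combination and 25.1% with the MS023 combination. The share was 18.5% with MC4455, 13.8% with PRT220 and 15.5% with MC4491. The summed range of the 6 markers was 1148 to 1254 CPM with PRT220, 953 to 1049 with MS023, 1067 to 1264 with MC4455 and 1048 to 1173 with MC4491. LYZ, at 892 to 2557 CPM, made up most of each sum, and CD14 stayed between 0.0779 and 0.540 CPM throughout. The sum was highest with GSK-LSD1 alone, whereas DUSP4 was highest with the PRT220 combination. By the median log2 fold change of the 6 markers the PRT220 combination was highest too. That median was 2.52 there, 2.35 with GSK-LSD1 and 2.30 with the MS023 combination. The part of the marker shift in the DUSP4 result was not tested. In RNA from a whole culture more cells of a kind and more RNA per cell cannot be told apart.

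DUSP5 (ENSG00000138166, chromosome 10, 110497838 to 110511544, plus strand) encodes a nuclear phosphatase specific for ERK and was the counterpart of DUSP4 in direction. DMSO libraries held 7.39, 10.5 and 9.95 CPM. The level was 5.37, 6.14 and 4.91 CPM with PRT220, 5.41, 5.61 and 6.61 CPM with GSK-LSD1 and 3.60, 4.13 and 4.97 CPM with both. Every one of these 9 libraries lay below the lowest DMSO library. The MS023 combination gave 5.56, 6.07 and 5.89 CPM, MC4455 5.40, 6.78 and 5.64 CPM, and MC4491 5.80, 6.76 and 4.87 CPM, again all below DMSO, while MS023 alone, at 7.43, 7.67 and 7.35 CPM, overlapped with it. DUSP5 fell by 0.77 on the log2 scale with PRT220, 0.66 with GSK-LSD1, 0.67 with the MS023 combination, 0.65 with MC4455 and 0.68 with MC4491. The edgeR adjusted p values ran from 0.00043 to 0.0017, and each was called in every alternative that could be run. The largest drop of DUSP5 was with the PRT220 combination, by 1.14 ± 0.146 (edgeR adjusted p = 1.8e-06). With MS023 alone the log2 fold change was -0.31 and not called. DMSO A was the lowest DMSO library for DUSP5, as it was for DUSP4, DUSP6, SPRED1, SPRY4, ETV5, PHLDA1 and CCND1.

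DUSP6 (ENSG00000139318, chromosome 12, 89347232 to 89353271, minus strand) encodes the cytoplasmic ERK phosphatase and is commonly used as a readout of ERK activity. It measured 120.2, 137 and 139.7 CPM in DMSO and 112, 115 and 113 CPM with MS023, and the other 18 libraries ranged from 108 to 151 CPM. No treatment was called against DMSO, and each pair of neighbouring groups overlapped. The 95% interval of the log2 fold change was -0.11 to 0.19 with PRT220 and -0.087 to 0.21 with GSK-LSD1, so a change of the size seen in DUSP4 or DUSP5 lay outside it. MS023 came closest to a call, with a log2 fold change of -0.22 ± 0.0705 and all 3 libraries below DMSO (edgeR adjusted p = 0.11); DESeq2 and the fit with the RRP9 term did call it.

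SPRED1, SPRED2 and SPRY4 act upstream of the kinases: SPRED proteins bring the RAS GTPase activator NF1 to the membrane, and Sprouty proteins interfere with signalling between receptor and RAF. SPRED1 (ENSG00000166068, chromosome 15, 38252326 to 38357249, plus strand) held 7.20, 8.39 and 8.08 CPM in DMSO. It reached 11.7, 12.7 and 13.0 CPM with MC4455, 11.4, 12.3 and 12.0 CPM with MC4491, and 12.3, 10.3 and 14.2 CPM with the MS023 combination, all above every DMSO library. The PRT220 combination (11.7, 10.0 and 9.58 CPM) and GSK-LSD1 alone (10.6, 9.14 and 9.54 CPM) also lay above DMSO, by less, whereas PRT220 (7.88, 6.33 and 8.04 CPM) and MS023 (7.91, 11.1 and 8.50 CPM) overlapped with it.

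SPRED1 rose by a log2 fold change of 0.65 ± 0.127 with MC4455 (edgeR adjusted p = 0.00056), 0.59 with MC4491 and 0.64 with the MS023 combination, each in all alternatives. The rise of 0.40 with the PRT220 combination (edgeR adjusted p = 0.013) was lost without DMSO A and without library A of the combination, with a largest edgeR adjusted p of 0.082. GSK-LSD1 alone gave 0.31 (edgeR adjusted p = 0.073), which was called only when the libraries low in RRP9 were left out.

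SPRED2 (ENSG00000198369, chromosome 2, 65310851 to 65432637, minus strand) stayed between 37.6 and 46.0 CPM in all 24 libraries and was not called in any of the 14 comparisons; without DMSO C it was called lower with PRT220 (edgeR adjusted p = 0.028) and with the PRT220 combination (0.045). SPRY4 (ENSG00000187678, chromosome 5, 142310427 to 142326455, minus strand) was the rarest of the genes, with 35 to 101 estimated counts per library. DMSO held 1.42, 1.66 and 1.76 CPM, and the MS023 combination 1.27, 1.05 and 0.996 CPM. It fell by 0.55 ± 0.207 on the log2 scale with that combination (edgeR adjusted p = 0.035). The call stood in 7 of 14 alternatives and was lost, among other settings, without DMSO B or C and without library B or C of the combination. PRT220, the PRT220 combination, MC4455 and MC4491 also lay wholly below DMSO, with log2 fold changes from -0.52 to -0.38 that were not called.

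The ETS factors ETV4 and ETV5, close relatives that bind the same DNA core and are transcribed in response to ERK, were called in opposite directions in both combinations with GSK-LSD1 and both lower with PRT220. ETV4 (ENSG00000175832, chromosome 17, 43527844 to 43579620, minus strand) was highest in DMSO, at 14.9, 13.1 and 12.7 CPM. It measured 8.96, 8.90 and 6.67 CPM with PRT220 and 7.64, 7.58 and 8.09 CPM with PRT220 and GSK-LSD1 together. These 6 libraries lay below all other 18. GSK-LSD1 alone gave 11.3, 11.3 and 13.0 CPM and MS023 alone 11.6, 11.7 and 12.4 CPM, of which GSK-LSD1 overlapped with DMSO and MS023 did not. The MS023 combination gave 9.85, 10.5 and 9.10 CPM, MC4455 10.5, 10.1 and 11.6 CPM, and MC4491 10.3, 10.8 and 11.3 CPM, all below DMSO. On the log2 scale ETV4 fell by 0.73 ± 0.0974 with PRT220 (edgeR adjusted p = 1.2e-05), 0.80 ± 0.0980 with the PRT220 combination (9.4e-07) and 0.46 ± 0.0971 with the MS023 combination (0.00054). It fell by 0.34 with MC4455 and 0.33 with MC4491; without DMSO A the largest edgeR adjusted p of these calls passed the threshold, at 0.056 and 0.080, and the MC4491 call was also lost without MC4491 A. GSK-LSD1 and MS023 alone both had log2 fold changes of -0.19 and were not called (edgeR adjusted p = 0.14 and 0.36).

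ETV5 (ENSG00000244405, chromosome 3, 186046308 to 186110318, minus strand) measured 64.1, 67.9 and 67.9 CPM in DMSO. GSK-LSD1 brought it to 98.1, 96.2 and 102 CPM, the PRT220 combination to 104, 104 and 107 CPM, and the MS023 combination to 92.9, 100.3 and 93.9 CPM. As with DUSP4, the 9 libraries with GSK-LSD1 stood above the other 15. PRT220 alone (62.5, 59.8 and 56.3 CPM) and MS023 alone (58.0, 60.0 and 58.7 CPM) lay below DMSO, and MC4455 (73.5, 65.5 and 70.1 CPM) and MC4491 (67.2, 69.3 and 68.7 CPM) overlapped with it. ETV5 rose by 0.57 ± 0.0443 with GSK-LSD1 (edgeR adjusted p = 2.3e-09), 0.65 ± 0.0444 with the PRT220 combination and 0.52 ± 0.0444 with the MS023 combination, in every alternative. The monocyte marker sums given beside DUSP4 moved with ETV5 in the same 3 groups, but not in others. With MC4455 5 of the 6 markers rose and with MC4491 3 of the 6, where ETV5 was not called. With PRT220 3 of the 6 rose, where ETV5 was lower. The part of the marker shift in the ETV5 result was not tested. ETV5 fell by 0.16 with PRT220 (edgeR adjusted p = 0.0098) and by 0.18 with MS023 (0.037). The PRT220 call was lost without PRT220 C and in the fit of those 2 groups alone, at an adjusted p of up to 0.060. The MS023 call stood in 5 of 14 alternatives and was lost, among other settings, without DMSO B or C and without any 1 of the MS023 libraries, with a largest edgeR adjusted p of 0.33.

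PHLDA1 (ENSG00000139289, chromosome 12, 76025447 to 76033932, minus strand), which encodes a pleckstrin homology protein induced by growth factors, was lower with either arginine methyltransferase inhibitor given alone. It measured 22.2, 30.1 and 31.8 CPM in DMSO, 17.7, 16.9 and 16.8 CPM with PRT220, and 17.0, 19.4 and 16.4 CPM with MS023. These 6 libraries lay below all others. With GSK-LSD1 alone the values were 29.1, 29.2 and 32.7 CPM, with the PRT220 combination 28.5, 34.6 and 34.3 CPM, and with the MS023 combination 31.0, 26.1 and 27.8 CPM. MC4455 gave 30.5, 31.7 and 29.2 CPM and MC4491 27.4, 32.7 and 21.9 CPM. All of these overlapped with DMSO. PHLDA1 fell by 0.71 ± 0.127 on the log2 scale with PRT220 (edgeR adjusted p = 0.00029) and by 0.68 ± 0.127 with MS023 (0.0073). The PRT220 call stood in all 13 alternatives that could be run. Removal of the libraries low in RRP9 was not among them, as all PRT220 libraries are low. The MS023 call was lost when only the MS023 and DMSO libraries were fitted (-0.68, adjusted p = 0.16) and when the libraries low in RRP9 were left out, which keeps 1 MS023 library (-0.44, adjusted p = 0.33). The libraries did not record strand, so reads of antisense transcripts at PHLDA1 cannot be told from its own.

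CCND1 (ENSG00000110092, chromosome 11, 69641087 to 69654474, plus strand) encodes cyclin D1, which activates CDK4 and CDK6 in G1 and is a classical ERK-dependent gene. DMSO held 4.72, 6.20 and 6.34 CPM. MS023 gave 3.48, 3.22 and 3.09 CPM, its combination with GSK-LSD1 3.85, 3.97 and 2.93 CPM, and PRT220 3.94, 4.32 and 3.06 CPM. These 9 libraries were all below DMSO. The PRT220 combination gave 4.61, 4.39 and 4.44 CPM, just under the lowest DMSO library, while GSK-LSD1 (5.05, 5.64 and 5.71 CPM), MC4455 (5.69, 5.99 and 5.10 CPM) and MC4491 (5.06, 4.21 and 5.12 CPM) overlapped with DMSO. CCND1 fell by 0.82 ± 0.140 with MS023 (edgeR adjusted p = 0.0041), 0.68 ± 0.140 with the MS023 combination (0.00044), 0.61 ± 0.139 with PRT220 (0.0025) and 0.36 ± 0.138 with the PRT220 combination (0.037). The last stood in 7 of 14 alternatives. It was lost without DMSO B or C, without any 1 library of the combination, with only those 2 groups fitted (adjusted p = 0.061) and with the libraries low in RRP9 left out (0.19). The MS023 call was lost in the same settings as that of PHLDA1, with a largest adjusted p of 0.14.

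**Figure D2:**
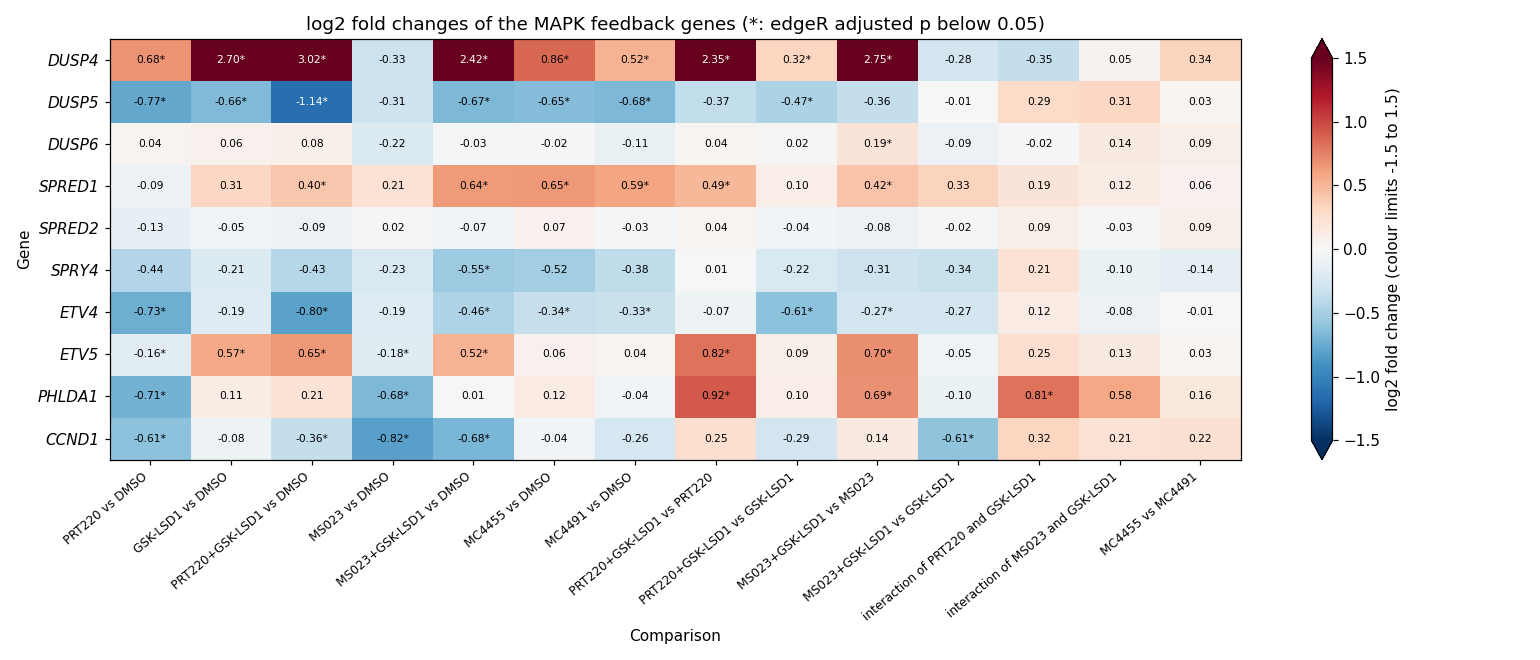
log2 fold changes of the 10 genes (rows) in the 14 comparisons (columns), printed in each cell with an asterisk where the edgeR adjusted p was below 0.05; colours are limited to -1.5 to 1.5. DUSP4 is called higher and DUSP5 called lower in 6 of the 7 comparisons with DMSO, all but MS023, and DUSP6 and SPRED2 carry no asterisk in any of these 7.

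Counted by treatment, the 10 genes showed mixed directions and were read against the share of all 16640 genes called. The 10 were chosen with earlier results of these data known, so the counts are a description. PRT220 raised 1 of 10 (DUSP4) and lowered 5 (DUSP5, ETV4, ETV5, PHLDA1, CCND1), where 13.8% of all genes were called higher and 11.1% lower; the median log2 fold change was -0.30 for the 10 and 0.0019 for all. GSK-LSD1 raised 2 (DUSP4, ETV5) and lowered 1 (DUSP5), against 17.6% higher and 15.0% lower, with medians of 0.0046 and 0.029. Its combination with PRT220 raised 3 (DUSP4, SPRED1, ETV5) and lowered 3 (DUSP5, ETV4, CCND1), against 24.4% and 22.1%, with medians of -0.0058 and 0.035. MS023 raised 0 and lowered 3 (ETV5, PHLDA1, CCND1), against 0.889% and 1.36% of all genes, with medians of -0.23 and -0.0014; at an unadjusted p below 0.05 it had 6 of the 10 and 2510 of all 16640 genes, and DESeq2 called 4 and 640. The MS023 calls fell to 0 of 10 when only those 2 groups were fitted and when libraries low in RRP9 were left out.

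The MS023 combination raised 3 (DUSP4, SPRED1, ETV5) and lowered 4 (DUSP5, SPRY4, ETV4, CCND1), where 25.1% of all genes were higher and 23.3% lower; the medians were -0.047 and 0.027. MC4455 raised DUSP4 and SPRED1 and lowered DUSP5 and ETV4, against 18.5% and 19.2%, with medians of 0.022 and 0.0088. MC4491 called these same 4 genes in the same directions, against 15.5% and 15.2%, with medians of -0.072 and 0.012. With scaling by library totals in place of TMM, the share of all calls that were higher moved from 49.0% to 62.7% for MC4455 and from 50.5% to 62.0% for MC4491, and no call among the 10 genes changed direction. The 7 comparisons share the DMSO libraries, so likeness between them is in part built in. The labels do not say that replicates were separate cultures, so the p-values cover no more than the variation among these libraries, which may be technical.

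Set directly against each other, MC4455 and MC4491 were called different in 0 of 10 genes, with 0% of all genes called higher and 0% lower. DESeq2 likewise called 0 of the 10, and 19 genes in all; at an unadjusted p below 0.05 there were 1 of the 10 and 780 genes. That 1 was DUSP4, with a log2 difference of 0.34 (95% interval 0.12 to 0.55, edgeR adjusted p = 0.88). MC4455 B, at 5.47 CPM, lay among the MC4491 libraries while MC4455 A and C lay above them, and without MC4455 B the difference was 0.47 and was called (edgeR adjusted p = 0.036). For SPRED1 the interval of the difference was -0.20 to 0.33, for DUSP5 -0.27 to 0.34 and for ETV4 -0.21 to 0.19. The doses and times behind both groups were not given, so whether the comparison is at a matched dose is not known.

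The study paired GSK-LSD1 with an arginine methyltransferase inhibitor, so each combination can be set against its single agents. On top of PRT220 it raised 4 of 10 genes and lowered 0, where 19.4% of all genes were higher and 18.8% lower. At an unadjusted p below 0.05 there were 5 of the 10 and 7789 of all 16640 genes, and DESeq2 called 5 and 6428; the added gene was DUSP5, with a log2 fold change of -0.37 (edgeR adjusted p = 0.052) that was also called without PRT220 C and without library C of the combination. DUSP4 rose by 2.35 ± 0.101 on the log2 scale, PHLDA1 by 0.92 ± 0.128 (edgeR adjusted p = 8.1e-06), ETV5 by 0.82 ± 0.0445 and SPRED1 by 0.49 ± 0.128. Each call stood in all 13 alternatives, which did not include removal of the libraries low in RRP9. On top of MS023 it raised 5 and lowered 1, against 20.0% in each direction. Here DUSP4 rose by 2.75 ± 0.107, ETV5 by 0.70 ± 0.0446, PHLDA1 by 0.69 ± 0.128, SPRED1 by 0.42 ± 0.127 and DUSP6 by 0.19 ± 0.0706, and ETV4 fell by 0.27. The DUSP6 call (edgeR adjusted p = 0.033) stood in 8 of 14 alternatives and was lost, among other settings, without any 1 of the MS023 libraries and without library A or B of the combination. The SPRED1 libraries of the 2 groups overlapped. The calls of SPRED1 and ETV4 stood in 9 and 10 of 14; SPRED1 was lost, among other settings, without MS023 A or C or library C of the combination, and ETV4 without MS023 C or library A or C of the combination. With the libraries low in RRP9 left out, DUSP4 and ETV5 were the 2 genes called.

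The second agent was also set against GSK-LSD1 alone. PRT220 on top of GSK-LSD1 raised DUSP4 by 0.32 ± 0.0943 (edgeR adjusted p = 0.024) and lowered ETV4 by 0.61 ± 0.0983 (0.00022) and DUSP5 by 0.47 ± 0.147 (0.033), 1 of 10 genes higher and 2 lower against 7.01% and 8.34% of all genes. The ETV4 call stood in all 14 alternatives. The DUSP4 call stood in 9 and was lost, among other settings, without GSK-LSD1 A or B or library A or C of the combination; the DUSP5 call stood in 8 and was lost, among other settings, without GSK-LSD1 B or C or library A or B of the combination. MS023 on top of GSK-LSD1 lowered CCND1 by 0.61 ± 0.140 (edgeR adjusted p = 0.010), 0 of 10 higher and 1 lower against 3.37% and 7.50%, where an unadjusted p below 0.05 was met by 4 of the 10 and 4407 of all 16640 genes and DESeq2 called 2 and 2196; the CCND1 call was lost without GSK-LSD1 B and without library C of the combination. Scaling by library totals moved the higher share of all calls from 45.7% to 59.8% in the first of these comparisons and from 31.0% to 43.1% in the second.

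**Figure D3:**
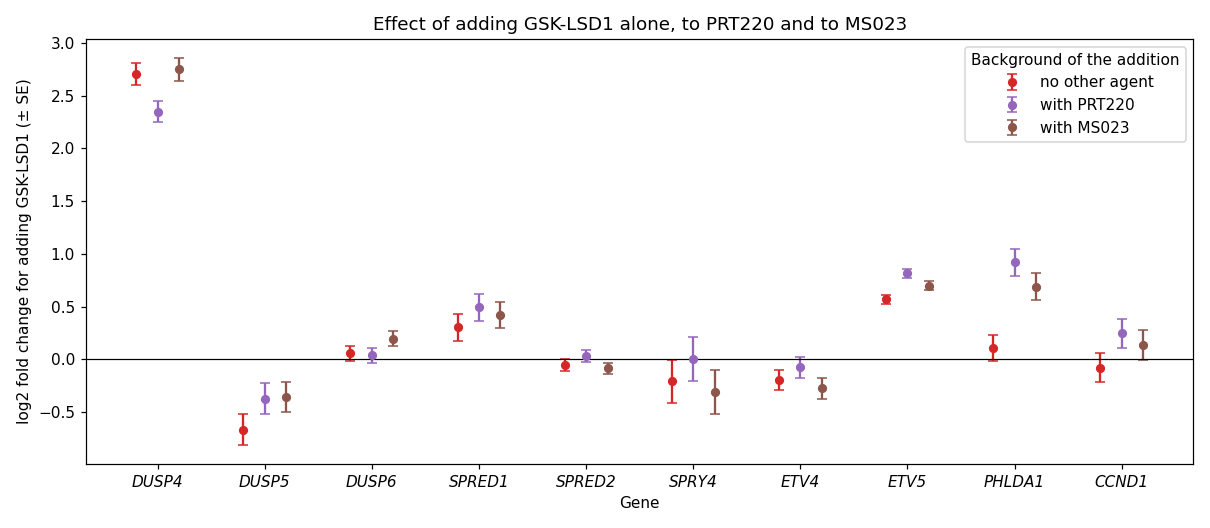
log2 fold change on adding GSK-LSD1 (y axis, points with ± SE) for each of the 10 genes (x axis) with no other agent, with PRT220 and with MS023. PHLDA1 differs most between backgrounds, at 0.11 with no other agent, 0.92 with PRT220 and 0.69 with MS023.

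The interaction term tests whether the effect of GSK-LSD1 differed in the presence of the second agent. For PRT220 it was called higher in 1 of 10 genes and lower in 0, against 0.102% of all genes higher and 0.439% lower, or 17 and 73 genes, while an unadjusted p below 0.05 was met by 3 of the 10 and 1673 of all 16640 genes and DESeq2 called 2 and 197; with library totals 31.6% rather than 18.9% of all calls were higher. The gene was PHLDA1, with an interaction of 0.81 ± 0.179 on the log2 scale (edgeR adjusted p = 0.043): GSK-LSD1 went with a log2 fold change of 0.11 ± 0.125 in its absence and 0.92 ± 0.128 in the presence of PRT220. Removal of the libraries low in RRP9 could not be run for this interaction, as all PRT220 libraries are low. The sign held in all 19 alternatives that were run (0.73 to 0.95) and the call in 7. It was lost in the fit of the 4 groups alone (adjusted p = 0.068), with the replicate letter as a block (0.062), and on leaving out any 1 of 10 of the 12 libraries (all but DMSO A and library A of the combination; adjusted p up to 0.13). ETV5 had an interaction of 0.25 (edgeR adjusted p = 0.085) and DUSP4 of -0.35 (0.38), neither called. ETV5 was called in 3 of 19 alternatives and DUSP4 in 0. Those 3 were DESeq2 (DESeq2 adjusted p = 0.0076), library totals (edgeR adjusted p = 0.023) and the fit without PRT220 A (0.025). For MS023 the interaction was called in 0 of 10 genes and in 0% of all genes in either direction. DESeq2 called 0 of the 10 and 20 genes in all, and an unadjusted p below 0.05 was met by 2 of the 10 and 1356 genes. PHLDA1 was 1 of those 2, at 0.58 ± 0.179 (edgeR adjusted p = 0.53), with a 95% interval of 0.21 to 0.95.

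Other genes of the pathway were counted by list, and each count is to be read beside the share of all genes called: 17.6% higher and 15.0% lower with GSK-LSD1, 24.4% and 22.1% with the PRT220 combination, 13.8% and 11.1% with PRT220, 25.1% and 23.3% with the MS023 combination, 18.5% and 19.2% with MC4455, 15.5% and 15.2% with MC4491, and 0.889% and 1.36% with MS023. Among 12 receptors and ligands, 4 rose and 4 fell with GSK-LSD1. IGF1, a ligand that signals through a receptor kinase to RAS, rose from 5.09 ± 0.741 CPM in DMSO to 129 ± 3.03 with GSK-LSD1, 217 ± 19.8 with the PRT220 combination and 21.6 ± 4.04 with PRT220. KIT, the stem cell factor receptor, rose from 6.67 ± 0.856 to 29.2 ± 1.93 CPM with PRT220 (log2 fold change 2.13), and 3 of 12 rose and 1 fell there. In the RAS, RAF, MEK and ERK list of 18, 3 rose and 3 fell with GSK-LSD1 and 4 rose and 6 fell with the PRT220 combination. The MEK gene MAP2K1 rose by 0.65 and 0.53, and the scaffold KSR1 fell by 1.19 and 1.45, in these 2 groups.

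Of 9 RAS GTPase activators and other inhibitors, 2 rose and 3 fell with GSK-LSD1: the ubiquitin ligase CBLB rose by 0.63 and the RAS GTPase activator RASA3 fell by 0.58. With PRT220 the 2 calls were RASA3 (-0.25) and LZTR1 (-0.26). Among the 7 other MAPK phosphatases, 2 fell with GSK-LSD1, 1 with the PRT220 combination, 2 with the MS023 combination, 3 with MC4455 and 2 with MC4491, and those were all the calls of edgeR in that list. DUSP2 fell by 0.57 with GSK-LSD1, 0.77 with the PRT220 combination and 0.58 with the MS023 combination, and DUSP1, an early response gene, fell by 1.24 with MC4455 and 1.20 with MC4491. Of the 17 other ERK target genes, 13 passed the filter, and with GSK-LSD1 2 rose and 4 fell. With the PRT220 combination 4 rose and 5 fell, and with the MS023 combination 4 rose and 4 fell. With MC4455 1 rose and 4 fell, and with MC4491 1 rose and 3 fell. EGR1, an immediate early gene of ERK, fell by 0.71 with GSK-LSD1, 0.78 with the PRT220 combination, 0.76 with the MS023 combination, 0.88 with MC4455 and 0.79 with MC4491, opposite to DUSP4 in each. SPRY2 fell by 0.73 with the PRT220 combination and 1.17 with the MS023 combination. With PRT220 1 of the 13 was called, lower, and with MS023 1 was called, MYC, which rose by 0.27. Of 8 G1 cyclins and partners, 4 fell with PRT220, and 3 rose and 4 fell with GSK-LSD1. CCND3, a relative of CCND1, fell by 0.17 and 0.40 respectively, and RB1 rose by 0.52 with GSK-LSD1.

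Across the 8 group means, DUSP4 and ETV5 ran together (Pearson r = 0.96, n = 8 groups) and so did DUSP5 and ETV4 (0.87), whereas DUSP4 and DUSP5 ran opposite (-0.72) and ETV4 and ETV5 showed little relation (-0.27). These are 8 points of shared libraries, of which 3 had GSK-LSD1, and are given as a description. Among 11054 genes with at least 5 CPM in some group, those most like DUSP4 in this measure were NHSL1, CADM1, SCPEP1, MTMR12 and CAMSAP2 (r from 0.996 to 0.998). CADM1, a cell adhesion molecule, ran from 1.53 to 14.5 CPM over the group means and the carboxypeptidase gene SCPEP1 from 46.0 to 131 CPM. Those most like ETV4 were MTR, the methionine synthase gene, LRP8, NCAPG2, DCAF16 and CDC14A (r from 0.975 to 0.992).

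**Figure D4:**
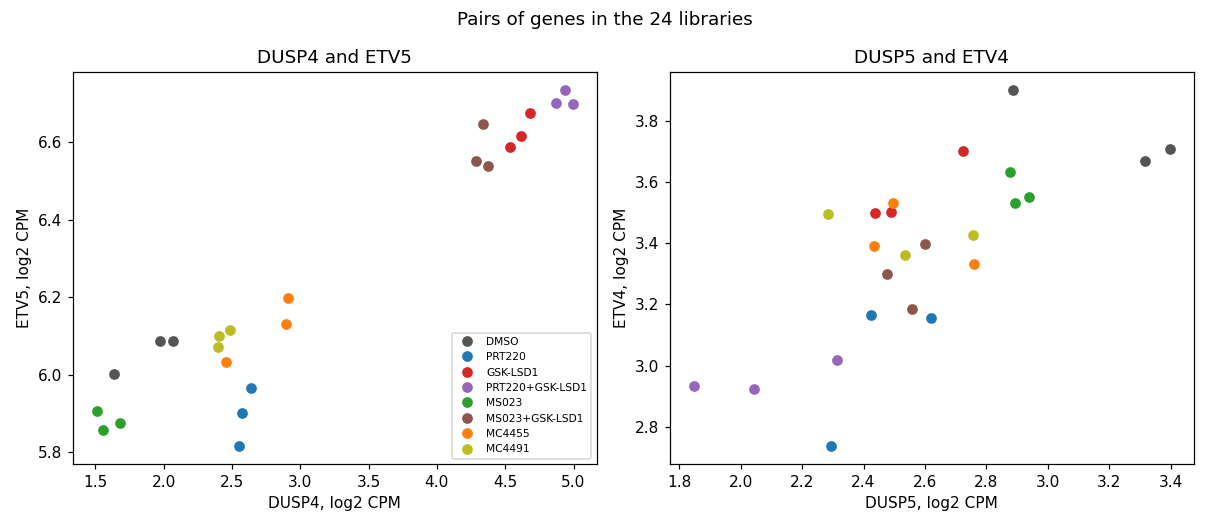
Left, log2 CPM of ETV5 (y axis) against DUSP4 (x axis); right, ETV4 (y axis) against DUSP5 (x axis); each point is 1 of 24 libraries, coloured by group. The 9 libraries with GSK-LSD1 form a separate cloud at upper right in the first panel, and DMSO lies at upper right in the second.

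In the transcript table most of the genes were carried by 1 annotated form. DUSP4-201 took 88.6% to 98.7% of DUSP4 counts over the 24 libraries, DUSP5-201 at least 99.0%, SPRED1-201 at least 99.2%, ETV5-201 84.4% to 93.1% and ETV4-201 79.0% to 95.3%. DUSP6 was split between DUSP6-201 (67.7% to 74.7%) and DUSP6-202 (20.0% to 26.2%) in every library. The estimates were unstable where forms share most of their sequence: PHLDA1-203 took between 0% and 43.1% of PHLDA1 counts, and SPRY4-206, annotated as a retained intron, between 0% and 96.6% of the few SPRY4 counts. These shares were not tested.

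Because ETV4 and ETV5 bind the ETS core, the promoters of the RefSeq table (GRCh38.p14, 300 bases, 250 of them before the start) were searched on both strands. The table matched 5 of the 10 genes (DUSP6, SPRED1, SPRED2, SPRY4 and PHLDA1) with 6 promoters, 2 of them of SPRED2. The ETS core CCGGAA was found in 1 of the 5 genes, PHLDA1, and in 17.2% of all 35116 promoters. The stretch around it is shown because PHLDA1 is the gene called in the interaction of PRT220 and GSK-LSD1. Capitals mark the core, which reads here as its reverse complement, 89 bases before the RefSeq start.
PHLDA1, chr12:76031850-76031875, minus strand: ggagaggagtTTCCGGggctcgggtc
In GENCODE 29 this stretch lies in the 5′ untranslated part of the first exon of PHLDA1-201, and upstream of the start of PHLDA1-202, the form with the most counts. The AP-1 element TGANTCA was found in SPRED2 and in 7.71% of all promoters, and the E-box CACGTG (7.26%) and the cAMP response element TGACGTCA (1.85%) in none of the 5. The shorter core TGACG, which the cAMP response element contains, was found in SPRED2 and SPRY4 (24.6% of all promoters), and AAATC, the core bound by the LSD1 partner GFI1, in SPRY4 (33.1%). A match of letters is a description and not a binding site, and no binding data were used here.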

How the data were processed

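RNA of 24 MV4-11 libraries in 8 groups of 3 was sequenced from poly(A)-selected, unstranded libraries with 101-base reads, per the labels' protocols. The authors deposited gene and transcript tables of estimated counts, whose values need not be whole. The submitters' processing notes name the build GRCh38 and, without their roles, DESeq2 1.28.1, R 4.0.0, Salmon 1.2.1 and STAR 2.7.3a. Groups come from the labels. Estimated counts were rounded and tested with edgeR 4.0.16 (R 4.3.3; TMM, filterByExpr, quasi-likelihood, 1 coefficient per group, all 24 libraries in 1 fit), with Benjamini-Hochberg adjustment over 16640 genes; intervals are 95%. Total depth was 32495446 to 61090593 estimated counts, and no 2 libraries of a group were identical. Tested on simulated counts with 2-fold changes for PRT220 against DMSO (15605 genes, 200 changed), the fit recovered 73.5% of them, and 7.33% of calls were false. Alternatives were DESeq2 1.42.0, other scalings, no filter, only the groups compared, a replicate block, leaving out each library, a term for the libraries low in RRP9, and their removal. Letters A to C did not pair libraries: deviations of same-letter libraries correlated between -0.19 and 0.15, and 6 of 24 libraries matched their own letter best. The members and lists were chosen with earlier results of these data known. From each list, up to 2 called genes per treatment with the largest fold change and at least 5 CPM were eligible to be named; genes of like pattern are the 5 with the highest correlation over group means. Gene positions are from GENCODE 29.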

Additional observations from a re-analysis of the deposited data

Results flagged for a closer look

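The effect of adding GSK-LSD1 on PHLDA1 was called different with PRT220 present in the fit of all 24 libraries. The interaction was 0.81 on the log2 scale (edgeR adjusted p = 0.043), between a log2 fold change of 0.11 without PRT220 and 0.92 with it, and all 3 libraries of the combination lay above all 3 PRT220 libraries. It was called in 7 of 19 alternatives, with adjusted p values from 0.0010 to 0.13. Removal of the libraries low in RRP9, among them all 3 PRT220 libraries, could not be run for it.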

How the results depend on the processing

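No called value changed direction in any alternative run. Of the 84 counts by pathway list, 8 moved in DESeq2 and 7 without the filter, by over 1.5 times or to or from 0. The RAS GTPase activators and other inhibitors higher with GSK-LSD1 went from 2 to 1 in both. The other ERK target genes higher with the PRT220 combination went from 4 to 2 in both. Those lower with PRT220 went from 1 to 2 in DESeq2. The number of the 10 genes called moved in these settings. With MS023 it went from 3 to 0 when only the groups compared were fitted and to 0 without the libraries low in RRP9. For the MS023 combination against MS023 it went from 6 to 2 without those libraries. For the MS023 combination against GSK-LSD1 it went from 1 to 2 in DESeq2, 2 with only the groups compared, 3 with the RRP9 term and 3 without those libraries. For the interaction of PRT220 and GSK-LSD1 it went from 1 to 2 in DESeq2, 2 with library totals, 0 with only the groups compared and 0 with the replicate block. Apart from that interaction, the block moved no count by over 1.5 times; it gave 2 rather than 3 calls for MS023, 5 rather than 4 for the PRT220 combination against PRT220 and 7 rather than 6 for the MS023 combination against MS023.

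Leaving out 1 library gave 5 to 7 calls for PRT220, 3 for GSK-LSD1, 4 to 6 for the PRT220 combination, 2 to 4 for MS023, 6 to 7 for the MS023 combination, and 3 to 4 for MC4455 and MC4491. It gave 4 to 5 for the PRT220 combination against PRT220, 1 to 2 against GSK-LSD1, 3 to 5 for the MS023 combination against MS023, 0 to 2 against GSK-LSD1, 0 to 1 for the PRT220 interaction, 0 for the MS023 interaction and 0 to 1 for MC4455 against MC4491.

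Over all genes, MS023 had 375 calls, against 640 in DESeq2, 0 with only the groups compared, 599 with the RRP9 term and 9 without the libraries low in RRP9. MC4491 had 5112 against 2963 with only the groups compared. The MS023 combination against MS023 had 6659 against 3359 without those libraries, and against GSK-LSD1 1808, with 1146 unfiltered and 2945 with the term. The PRT220 interaction had 90, with 197 in DESeq2, 54 unfiltered and 53 with only its groups. The MS023 interaction had 0, with 20 in DESeq2 and 2 without those libraries; MC4455 against MC4491 had 0, with 19 in DESeq2, 1 unfiltered, 4 with only its groups and 1 without those libraries. Removing the libraries low in RRP9 could not be run for PRT220, whose 3 libraries are all low. The cause was not tested.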
